A study of Mus musculus with 8 samples.

Results

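A set of 10 genes, most of which encode photoreceptor regulators or outer segment proteins, was followed in retinal pigment epithelium (RPE) eyecups of Bbs8-/- mice. They were chosen by symbol as photoreceptor transcription factors (Crx, Nrl, Nr2e3), outer segment proteins (Prph2, Rom1, Rp1, Prom1), helper proteins of photoreceptor protein transport (Unc119, Aipl1) and the dopamine receptor Drd4. Expression of Unc119 and Drd4 is not confined to photoreceptors. All 10 were found among the 31053 gene identifiers of the count files, and 10 of 10 passed the filter on low counts. The data came from QuantSeq 3′ mRNA sequencing of 8 libraries at postnatal day 11 (P11) from mice of strain C57/Bl6. Of these, 4 were from wild type littermates (Bbs8+/+, n = 4) and 4 from Bbs8 knockout animals (Bbs8-/-, n = 4), and none was treated. RNA was taken from the back of the eye after dissection of the neural retina and its nerve and of the front parts with the lens, so each library holds the RPE together with the tissue beneath it. The comparison addresses how loss of this ciliary gene alters expression in the eyecup at an age when outer segments are still growing.

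Photoreceptors carry a modified primary cilium, the outer segment, filled with stacked membrane discs. CRX, NRL and the nuclear receptor NR2E3 switch on the rod genes, and NR2E3 also represses cone genes in rods. The tetraspanins PRPH2 and ROM1 join each other at the rims of the discs, RP1 binds the microtubules of the axoneme beside them, and PROM1 sits where new discs form. UNC119 shields the lipid anchor of transducin and other acylated proteins during transport, AIPL1 is a chaperone of the cone and rod phosphodiesterase, and DRD4 is a dopamine receptor that lowers cyclic AMP in photoreceptors. The RPE lies against the outer segment tips and takes up shed discs. The BBSome, of which BBS8 is a subunit, moves membrane proteins through cilia.

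The DNA just before the start of transcription is shown for 7 of these genes. Nr2e3, Unc119 and Drd4 are the genes that passed the test between the genotypes, Prph2 and Rom1 encode the partners of the disc rim, and Crx and Aipl1 hold a Crx motif. Each window covers the 250 bases before the RefSeq start, in GRCm38.p6, read 5′ to 3′ on the strand of the gene. Capitals mark TAATCC, the core motif of Crx and Otx2, or its reverse complement GGATTA. The windows are chr9:59950080-59950329 (minus strand) for Nr2e3, chr11:78343245-78343494 (plus) for the first of the Unc119 starts and chr7:141291768-141292017 (plus) for Drd4. Those of Prph2, Rom1, Crx and Aipl1 are chr17:46910228-46910477 (plus), chr19:8929357-8929606 (minus), chr7:15879956-15880205 (minus) and chr11:72037510-72037759 (minus).
Nr2e3: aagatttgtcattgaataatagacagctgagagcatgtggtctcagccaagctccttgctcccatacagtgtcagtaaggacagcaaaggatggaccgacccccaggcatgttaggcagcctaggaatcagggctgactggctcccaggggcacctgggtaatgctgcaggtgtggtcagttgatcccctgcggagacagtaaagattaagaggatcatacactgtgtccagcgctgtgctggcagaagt
Unc119: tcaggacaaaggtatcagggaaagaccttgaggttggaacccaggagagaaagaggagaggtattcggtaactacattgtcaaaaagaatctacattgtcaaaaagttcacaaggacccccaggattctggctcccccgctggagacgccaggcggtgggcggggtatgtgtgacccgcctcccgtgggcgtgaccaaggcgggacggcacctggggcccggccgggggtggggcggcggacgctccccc
Drd4: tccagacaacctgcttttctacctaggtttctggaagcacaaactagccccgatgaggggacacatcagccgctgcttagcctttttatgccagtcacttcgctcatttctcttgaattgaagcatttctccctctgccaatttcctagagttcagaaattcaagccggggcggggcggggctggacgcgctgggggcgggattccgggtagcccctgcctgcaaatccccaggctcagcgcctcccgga
Prph2: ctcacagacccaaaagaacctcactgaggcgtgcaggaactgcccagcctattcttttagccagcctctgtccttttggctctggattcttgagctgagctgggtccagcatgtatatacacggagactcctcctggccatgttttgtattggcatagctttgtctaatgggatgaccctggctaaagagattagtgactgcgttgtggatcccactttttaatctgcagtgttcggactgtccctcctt
Rom1: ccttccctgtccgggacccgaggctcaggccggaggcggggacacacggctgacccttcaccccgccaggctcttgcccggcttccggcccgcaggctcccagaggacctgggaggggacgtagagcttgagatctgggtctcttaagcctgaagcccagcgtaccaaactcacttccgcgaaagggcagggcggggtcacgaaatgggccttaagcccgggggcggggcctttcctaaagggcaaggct
Crx: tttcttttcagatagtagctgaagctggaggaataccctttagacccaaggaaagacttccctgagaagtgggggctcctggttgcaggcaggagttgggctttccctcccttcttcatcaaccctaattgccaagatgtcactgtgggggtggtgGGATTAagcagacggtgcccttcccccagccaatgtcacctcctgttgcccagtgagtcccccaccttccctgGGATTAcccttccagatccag
Aipl1: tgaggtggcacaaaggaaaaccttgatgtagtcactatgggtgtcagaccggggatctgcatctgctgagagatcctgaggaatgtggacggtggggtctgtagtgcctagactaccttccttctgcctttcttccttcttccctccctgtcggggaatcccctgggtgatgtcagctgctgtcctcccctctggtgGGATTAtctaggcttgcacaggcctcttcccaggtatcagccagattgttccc
The Crx window held the motif at 2 places, with its first base at -94 and -21 from the start, and the Aipl1 window held it at -53. The windows shown for Nr2e3, Unc119, Drd4, Prph2 and Rom1 held none. RefSeq listed 12 start sites for 9 of the 10 genes, and Rp1 had no entry. TAATCC in either orientation was in 3 of these 12 windows, the other one being at the second Unc119 start, and in 6.25% of 32817 windows of the same length. The bases just after that Unc119 start matched no GENCODE transcript of the gene, unlike those after the other starts. TGCTGA, the core of the sites that NRL binds, was in 2 of 12 (Aipl1 and the third Unc119 start) against 16.1% of all windows, and AAGTCA, the core of NR2E3 sites, in 0 of 12 against 13.1%. These are matches of letters only.

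The level of the targeted gene was compared with the labels. Ttc8, the symbol of Bbs8, was 14.6, 19.7, 18.2 and 21.6 CPM in Bbs8+/+ replicates 1 to 4 and 9.70, 3.65, 2.29 and 4.20 CPM in Bbs8-/- replicates 1 to 4. It was lower in every Bbs8-/- library than in any Bbs8+/+ library, but not absent. Bbs8-/- replicate 1 held the most, 16 counts against 5 to 9 in the others. CPM here are counts relative to the library total, corrected with TMM factors that align the bulk of genes between libraries. Totals ranged from 1636725 to 2884983 gene counts per library, so a floor of 3 counts, which covers counting error only, lay at 1.04 to 1.83 CPM. Since 3′ sequencing gives about 1 read per transcript whatever its length, CPM do not scale with gene length, and levels are compared only within a gene. The RPE character of the preparations was checked on 12 marker genes, of which Ttr had 19222 to 29310 counts per library and Best1 no more than 10. Xist (1030 to 1990 counts) and 4 Y-linked genes (139 to 260 counts) were detected in all 8 libraries, and the Y-linked share of their sum was 7.68% to 8.78% in Bbs8+/+ and 14.9% to 17.3% in Bbs8-/-. Transcripts of both sexes were thus present in each library, whereas the labels number the libraries as biological replicates and the methods take each animal as a replicate. The part of this difference in the results below was not tested.

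Of the 10 genes, Nr2e3 and Unc119 were up-regulated and Drd4 was down-regulated in Bbs8-/- eyecups at a false discovery rate (FDR) of 0.05 with the edgeR quasi-likelihood test, and 7 did not pass. Over all 13813 genes tested, 2.24% passed, 1.1% upward and 1.14% downward. At an unadjusted p under 0.05 stood 4 higher genes (6.38% of all genes tested were) and 2 lower genes (6.6%). Non-overlapping values of the 4 Bbs8+/+ and the 4 Bbs8-/- libraries were seen for 4 of the 10 genes, against 7.38% of all genes tested. These were Nr2e3, Rom1 and Unc119, which were higher (3.62% of all), and Drd4, which was lower (3.76%). The fitted log2 fold change was above 0 for 5 genes and below 0 for 5, with a median of 0.06 (-0.0041 over all genes tested). The median of its absolute value was 0.37, against 0.19 over all genes. The summed level of the 10 genes was 295 to 343 CPM in Bbs8+/+ and 351 to 365 CPM in Bbs8-/-. Unc119 alone gave 81.0 to 97.6 CPM and 98.6 to 117 CPM of it, so the sum follows the genes of high level more than the set. In whole tissue, fewer cells of a type and less RNA per cell cannot be told apart.

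**Figure D1:**
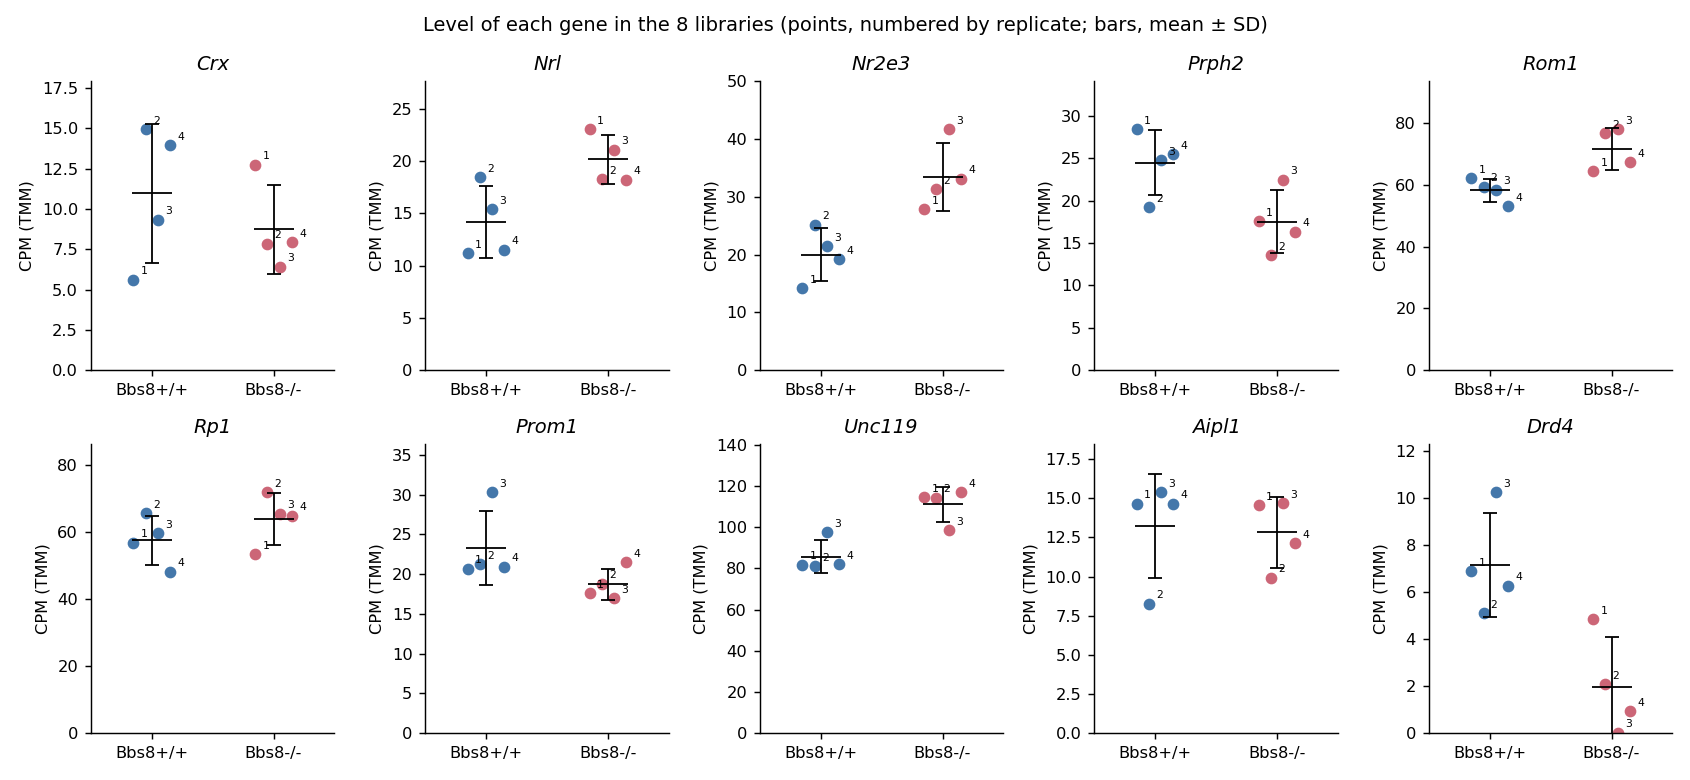
Level of each of the 10 genes in the 8 libraries, in TMM-normalized CPM from 0 on a linear vertical axis; points are libraries numbered by replicate and bars give the mean ± SD of 4. The groups separate for Nr2e3, Rom1, Unc119 and Drd4 and overlap for the other genes.

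Of the 3 transcription factors, Nr2e3 alone passed the test. Nr2e3 (ENSMUSG00000032292, mm10 chromosome 9, 59942771 to 59960659) was 14.2, 25.2, 21.5 and 19.2 CPM in Bbs8+/+ and 27.9, 31.3, 41.7 and 33.2 CPM in Bbs8-/-, from 33 to 64 and 46 to 91 counts. Every Bbs8-/- library lay above every Bbs8+/+ library. Nr2e3 rose 1.68-fold, a log2 fold change of 0.75 (standard error, SE, 0.196, 95% interval 0.36 to 1.14, edgeR FDR 0.0143). A pair of annotated transcripts overlaps Nr2e3, Gm7616 on the opposite strand and Gm15507 on the same, and both had 0 counts in all 8 libraries. The call was lost without Bbs8+/+ replicate 1 (edgeR FDR 0.0939) and without Bbs8-/- replicate 3 (edgeR FDR 0.148), the libraries with the lowest and the highest level, where the log2 fold change was 0.63 in both fits.

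Nrl (chromosome 14, 55518978 to 55524981), whose product drives rod fate upstream of Nr2e3, was 11.2, 18.5, 15.4 and 11.5 CPM in Bbs8+/+ and 23.0, 18.3, 21.1 and 18.2 CPM in Bbs8-/-. Only Bbs8+/+ replicate 2 reached into the range of Bbs8-/-. Its log2 difference of 0.51 (95% interval 0.03 to 0.98) did not pass after adjustment over all genes (edgeR FDR 0.34). Crx (chromosome 7, 15865947 to 15879968), the homeobox factor common to rods and cones, was 5.60, 14.9, 9.34 and 14.0 CPM in Bbs8+/+ and 12.7, 7.83, 6.42 and 7.94 CPM in Bbs8-/-. The Bbs8+/+ libraries covered the wider range, and all Bbs8-/- values lay inside it. With 13 to 40 counts per library, the interval of the log2 difference ran from -0.99 to 0.26 (edgeR FDR 0.698).

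The genes of the disc rim partners had estimates of opposite sign, and neither passed on its own. Prph2 (chromosome 17, 46910459 to 46924933) was 28.4, 19.3, 24.7 and 25.5 CPM in Bbs8+/+ and 17.6, 13.6, 22.5 and 16.3 CPM in Bbs8-/-. Bbs8-/- replicate 3 alone lay inside the range of Bbs8+/+. For Prph2 the log2 difference of -0.48 (95% interval -0.90 to -0.05) did not pass (edgeR FDR 0.317). Rom1 (chromosome 19, 8927391 to 8929356) was 62.0, 59.4, 58.4 and 53.1 CPM in Bbs8+/+ and 64.3, 76.7, 78.0 and 67.2 CPM in Bbs8-/-. All Bbs8-/- libraries were higher, although the log2 difference of 0.30 (95% interval 0.05 to 0.55) did not pass either (edgeR FDR 0.247).

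Within each library, the log2 ratio of Prph2 to Rom1 counts does not depend on scaling. It was -1.12, -1.61, -1.23 and -1.05 in Bbs8+/+ and -1.85, -2.48, -1.78 and -2.03 in Bbs8-/-, without overlap. The means differed by -0.78, from -1.25 ± 0.251 to -2.03 ± 0.312 (SD, n = 4 each), with a two-sided exact permutation p of 0.0286, the smallest that 4 against 4 libraries allow. It was 1 of 5 ratios compared, and after Benjamini-Hochberg adjustment over the 5 the exact permutation p was 0.0714, so none of the 5 passed 0.05. The p was 0.0571 in the exact permutation test without Bbs8-/- replicate 2 (difference -0.63) and without Bbs8-/- replicate 4 (difference -0.78).

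The other outer segment genes did not pass either. Rp1 (chromosome 1, 3999557 to 4409241), which encodes the axoneme protein, ranged from 48.2 to 65.7 CPM in Bbs8+/+ and from 53.4 to 72.0 CPM in Bbs8-/-. Its log2 difference was 0.16 (95% interval -0.10 to 0.42, edgeR FDR 0.671), and it was 0.08 without Bbs8+/+ replicate 4 and 0.07 after thinning to the smallest total. Prom1 (chromosome 5, 43993620 to 44102032), also called CD133, ranged from 20.7 to 30.4 CPM and from 17.0 to 21.5 CPM, a log2 difference of -0.31 (95% interval -0.73 to 0.12, edgeR FDR 0.597). The highest Prom1 level was in Bbs8+/+ replicate 3, without which the log2 difference was -0.16. For both genes the genotypes overlapped, and Gm16401, annotated opposite Prom1, had at most 2 counts in any library.

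**Figure D2:**
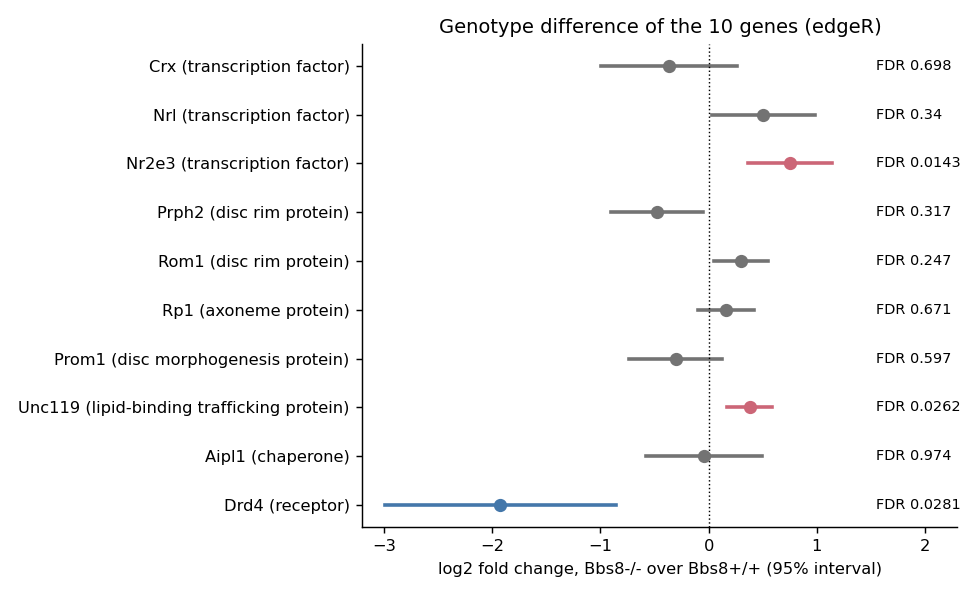
Fitted log2 fold change of Bbs8-/- over Bbs8+/+ for the 10 genes on a linear axis; points are estimates, lines are 95% intervals, red marks genes higher and blue lower at FDR 0.05, and grey marks genes that did not pass. Nr2e3 (0.75) and Unc119 (0.38) lie to the right of 0 and Drd4 (-1.92) to the left, with the widest interval.

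Unc119, the transport factor for lipidated proteins, showed the smaller of the increases. Unc119 (ENSMUSG00000002058, chromosome 11, 78343482 to 78349164) was 81.9, 81.0, 97.6 and 82.0 CPM in Bbs8+/+ and 115, 114, 98.6 and 117 CPM in Bbs8-/-. The libraries numbered 3 nearly met, at 97.6 and 98.6 CPM, while the other 3 of each genotype stood well apart. Unc119 rose 1.30-fold, a log2 fold change of 0.38 (SE 0.105, 95% interval 0.17 to 0.59, edgeR FDR 0.0262). The call was lost in 6 of the 8 fits that left out a library, those without Bbs8+/+ replicate 1, 2 or 4 or Bbs8-/- replicate 1, 2 or 4, with edgeR FDR from 0.0727 to 0.112. It was kept without replicate 3 of either genotype, and lost when all libraries were thinned to the smallest total (log2 fold change 0.33, edgeR FDR 0.127).

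Transducin is the best known cargo of UNC119, and its rod subunit gene Gnat1 was down-regulated. Gnat1 had 91, 92, 131 and 129 counts in Bbs8+/+, and 51, 58, 43 and 43 counts in Bbs8-/- (log2 fold change -0.86, edgeR FDR 0.0005). The log2 ratio of Unc119 to Gnat1 counts was 1.06, 1.16, 0.67 and 0.86 in Bbs8+/+, with a mean of 0.94 ± 0.216 (SD, n = 4). It was 1.88, 1.91, 2.31 and 2.53 in Bbs8-/-, with a mean of 2.16 ± 0.317. The difference of 1.22 restates the calls of both genes, which differed in opposite directions without overlap, so its separation is given as a description. The paralog Unc119b had 9 to 30 counts per library and a log2 difference of -0.43 (95% interval -1.08 to 0.22, edgeR FDR 0.641).

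Aipl1 (chromosome 11, 72027963 to 72037509), the phosphodiesterase chaperone, showed the smallest difference of the 10. It ranged from 8.26 to 15.4 CPM in Bbs8+/+ and from 9.92 to 14.7 CPM in Bbs8-/-. The interval of the log2 difference, from -0.58 to 0.50 around -0.04, leaves room for a change of either sign (edgeR FDR 0.974). The direction reversed in 4 of the 8 fits that left out a library.

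Drd4 (ENSMUSG00000025496, chromosome 7, 141292006 to 141296464), the dopamine receptor gene, showed the steepest fall of the 10, at the lowest counts. It was 6.89, 5.11, 10.3 and 6.28 CPM in Bbs8+/+, from 16, 13, 22 and 18 counts. In Bbs8-/- it was 4.85, 2.09, 0 and 0.934 CPM, from 8, 4, 0 and 2 counts, where the count of 0 in replicate 3 allows up to 1.38 CPM. The highest Bbs8-/- library, replicate 1, lay just under the lowest Bbs8+/+ library. Drd4 was 3.80-fold lower in Bbs8-/-, a log2 fold change of -1.92 (SE 0.538, 95% interval -2.99 to -0.86, edgeR FDR 0.0281). The call was lost without Bbs8+/+ replicate 1 (edgeR FDR 0.0523) or 3 (0.128) and without Bbs8-/- replicate 2 (0.0582), 3 (0.178) or 4 (0.13). In the 8 fits that left out a library the estimate ranged from -1.48 without Bbs8-/- replicate 3 to -2.80 without Bbs8-/- replicate 1, where the call was kept (edgeR FDR 0.00519).

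Set against Crx in the same library, the Drd4 level overlapped between the genotypes. The mean log2 ratio of Drd4 to Crx counts was -0.55 ± 0.901 for Bbs8+/+, against -2.70 ± 1.57 for Bbs8-/- (SD over 4 libraries, two-sided exact permutation p = 0.0571). With each library left out in turn, the exact permutation p ran from 0.0286 (without Bbs8-/- replicate 1, difference -2.60) to 0.143 (without Bbs8+/+ replicate 1 or 3, differences -1.86 and -1.91), and the difference was smallest, -1.42, without Bbs8-/- replicate 3. The regulators were compared in the same way. The log2 ratio of Nrl to Crx was 0.43 ± 0.543 for Bbs8+/+, against 1.22 ± 0.346 for Bbs8-/- (exact permutation p = 0.0571), with 3 of 4 Bbs8-/- libraries above all Bbs8+/+ libraries. Here the exact permutation p ran from 0.0286 (without Bbs8+/+ replicate 1, difference 0.98) to 0.143 (without Bbs8-/- replicate 3, difference 0.64). That of Nr2e3 to Nrl was 0.50 ± 0.166 and 0.72 ± 0.309 (exact permutation p = 0.286), a difference within the spread between libraries.

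**Figure D3:**
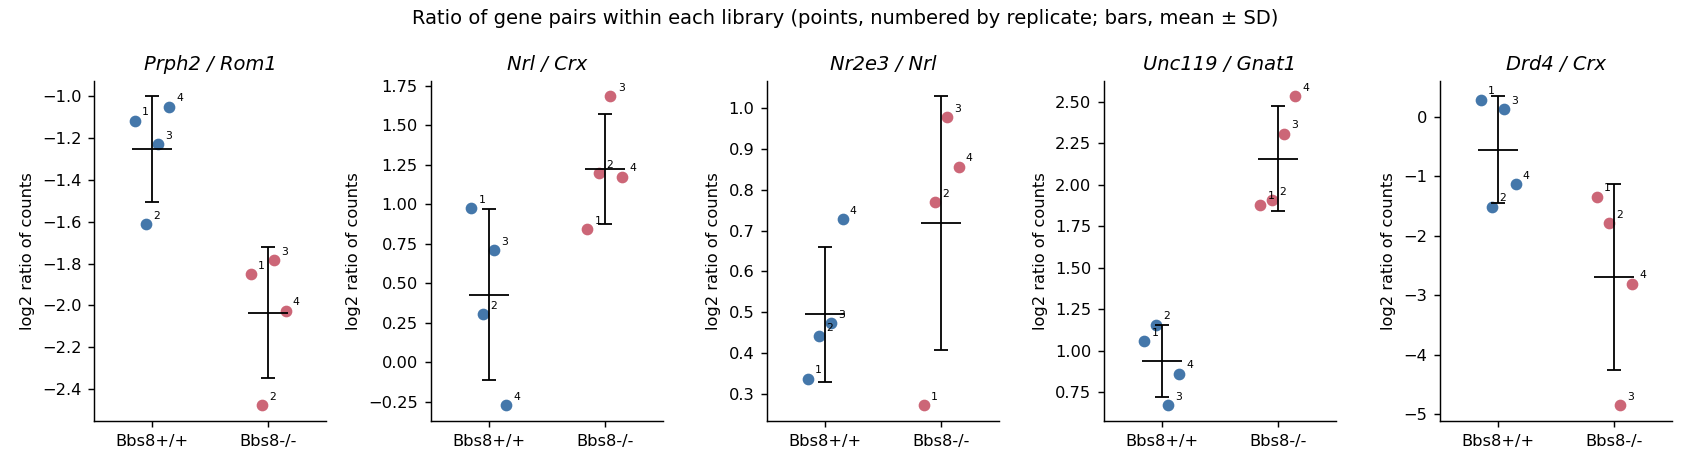
Log2 ratio of the counts of 5 gene pairs within each library, on linear axes that differ between panels and do not start at 0; points are libraries numbered by replicate and bars give the mean ± SD of 4. Prph2 to Rom1 and Unc119 to Gnat1 separate the genotypes, and the other ratios overlap.

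Other genes of the same processes were taken from lists written with earlier results of these data known, so their counts are descriptions. Among 12 tested photoreceptor regulators, Otx2 alone passed. Otx2, a homeobox factor of photoreceptors and of the RPE, was 540 to 568 CPM in Bbs8+/+ and 753 to 799 CPM in Bbs8-/- (log2 fold change 0.48, edgeR FDR 6.01e-12). The other 11 did not pass, and the list had a median of 0.02. Of 11 tested outer segment and connecting cilium genes, 0 passed in either direction, with a median of 0.17. Among them were Cdhr1, a disc cadherin (log2 difference 0.24, edgeR FDR 0.182), and Rpgrip1 of the connecting cilium (-0.13, edgeR FDR 0.743).

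Of 18 tested rod phototransduction genes, 2 were down-regulated, 0 were up-regulated and 13 had a log2 fold change below 0, with a median of -0.13. Gnat1, described above, was among the called genes. The summed rod level was 1188 to 1254 CPM in Bbs8+/+ and 1096 to 1150 CPM in Bbs8-/-. Gnat1 was thus lower in the genotype in which Nr2e3 was higher. Of 7 tested cone phototransduction genes 0 passed, with a median of 0.35, and their summed level was 19.0 to 35.6 and 28.2 to 41.8 CPM. Pde6c (log2 difference 0.35, edgeR FDR 0.747) and Gngt2 (0.24, edgeR FDR 0.84) had at most 30 counts in any library. The cone markers Opn1sw, Opn1mw and Arr3 had at most 11, 6 and 4. Of the list, Opn1mw had the largest log2 difference, 2.08 (edgeR FDR 0.28), from 0 to 3 counts in Bbs8+/+ and 2 to 6 counts in Bbs8-/-.

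None of the 8 genes that handle lipidated cargo beside Unc119 passed, with Arl3 at a log2 difference of 0.05 (edgeR FDR 0.916) and Arl2 at 0.23 (edgeR FDR 0.51) and a median of -0.05 for the list. ARL3 is the small GTPase that releases cargo from UNC119. Of 10 dopamine genes beside Drd4, 5 were deep enough to test and 0 passed, with a median of 0.36. Ddc, which makes dopamine, had a log2 difference of -0.37 (edgeR FDR 0.441) and Adcy1, an adenylyl cyclase, of 0.36 (edgeR FDR 0.624). The receptor gene Drd1 had 2 to 5 counts in Bbs8+/+ and 2 to 13 counts in Bbs8-/-, with the largest log2 difference of the list, 1.58 (edgeR FDR 0.283). The other receptor genes Drd2, Drd3 and Drd5 had at most 1 count in any library.

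**Figure D4:**
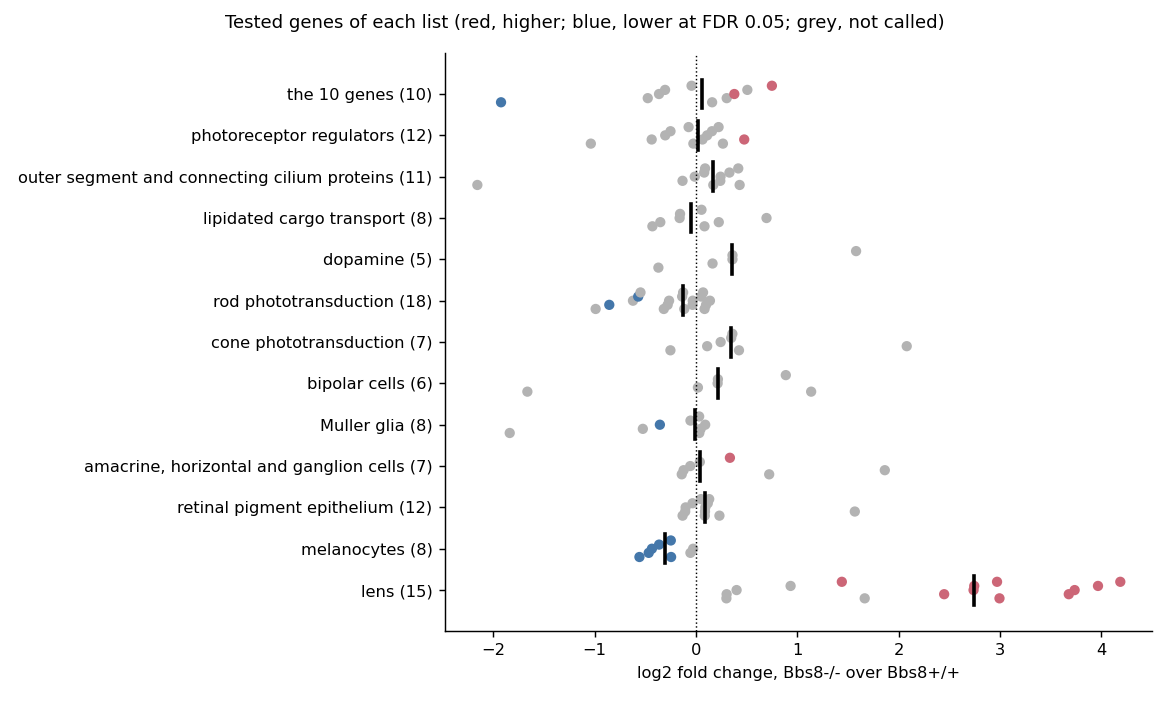
Log2 fold change of Bbs8-/- over Bbs8+/+ for each tested gene of the 13 lists on a linear axis, with the number of tested genes in parentheses; each point is a gene, red higher and blue lower at FDR 0.05, and black bars are list medians. The 10 genes spread to both sides of 0, while the melanocyte list lies below 0 and the lens genes above it.

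The lens and melanocyte lists held genes that moved with the genotype. The lens list of 18 genes summed to 62.9 to 83.1 CPM in Bbs8+/+ and 408 to 452 CPM in Bbs8-/-, and 10 of 15 tested genes were up-regulated, led by Crygc, Crygd, Crybb1 and Crygb (log2 fold changes 4.19, 3.97, 3.74 and 3.68, edgeR FDR at most 2.33e-12). The melanocyte list of 8 genes summed to 13964 to 14631 and 11537 to 12120 CPM, with 6 of 8 down-regulated, among them Tyrp1 (-0.56), Mlana (-0.47), Ednrb (-0.43) and Mitf (-0.36, edgeR FDR 6.70e-04). The genes that did not pass were Sox10 (-0.05, edgeR FDR 0.878) and Kit (-0.03, edgeR FDR 0.974), which mark melanocytes. Ednrb, a receptor gene on the same list and not a pigment gene, did fall (edgeR FDR 1.97e-05). Tyrp1, Mlana and Mitf are also pigment genes of the RPE. Which cells carried the fall was not tested. None of the 12 RPE markers passed, with Ttr at 0.09 (edgeR FDR 0.0686), Rgr at 0.05 (edgeR FDR 0.681) and a median of 0.09. The part of these tissues in the differences of Nr2e3, Unc119 and Drd4 was not tested.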

How the data were processed

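RNA of 8 P11 eyecup libraries (4 Bbs8+/+, 4 Bbs8-/-) was profiled with the QuantSeq 3′ mRNA-Seq kit FWD. The authors trimmed reads with BBDuk, aligned them with STAR to mm10 with an Ensembl gene model, and deposited htseq-count gene counts of uniquely aligned reads, not normalized. The strand setting was not given in the sources used here, and the filter of the study on multi-mapped reads was not applied.

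Symbols were given for 30934 of 31053 identifiers, and positions came from GENCODE M21 of the same assembly. Genes reaching 1 CPM in 4 or more libraries entered edgeR 4.0.16 (quasi-likelihood, TMM, genotype as the factor, two-sided, R 4.3.3), and FDR was taken over all tested genes, threshold 0.05. Each SE was the absolute log2 fold change divided by the root of F. Ratios were log2 of counts plus 0.5, compared by exact permutation. The procedure was tested on simulated counts. Alternatives were RLE factors, library totals, filterByExpr, no filter, DESeq2 1.42.0, a replicate block, each library left out, thinning to the smallest total, and leaving out Gm42418 and mitochondrial genes.

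No 2 libraries held identical counts, and same-genotype pairs differed by 1.87 to 3.08 chi-square units per gene, where counting noise gives about 1. The 10 genes, the lists, the ratios and the motifs were chosen with earlier results of these data known. Named genes were the 10, the second gene of each ratio, up to 4 called genes of each list by size of change or otherwise its 2 of highest level, and the 5 of most like pattern. Others (Unc119b, Best1, Opn1sw, Opn1mw, Arr3, Drd1, Drd2, Drd3, Drd5, Sox10, Kit, the overlapping transcripts, sex-linked genes and the near-absent markers) were chosen after their values were seen. BC027072, on the outer segment list, was not matched. Single values of some list genes are not reported here.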

Additional observations from a re-analysis of the deposited data

Results flagged for a closer look

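In 5 of 56 groups of 4 libraries, where chance gives about 2.8, a single library was separated from the remaining 3 by most of the range of its group. Prom1 was 30.4 CPM in Bbs8+/+ replicate 3 against 20.7 to 21.2 CPM in the others. Unc119 was 97.6 CPM in Bbs8+/+ replicate 3 against 81.0 to 82.0 CPM, and 98.6 CPM in Bbs8-/- replicate 3 against 114 to 117 CPM. Aipl1 was 8.26 CPM in Bbs8+/+ replicate 2 against 14.6 to 15.4 CPM. The summed level of the genes that handle lipidated cargo was 239 CPM in Bbs8-/- replicate 4 against 224 CPM in each of the others.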

How the results depend on the processing

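Of the 10 genes, Crx, Nrl, Prph2, Rom1, Rp1, Prom1 and Aipl1 stayed short of FDR 0.05 in every alternative that gave an adjusted p. Nr2e3, Unc119 and Drd4 kept their direction in all alternatives, and Nr2e3 kept its call in 8 of the 8 alternatives that used every library. Thinning left 1 gene called higher instead of 2, since Unc119 was then at a log2 fold change of 0.33 (edgeR FDR 0.127). DESeq2 called 2 higher and 0 lower, since it gave Drd4 no adjusted p (log2 fold change -1.94, unadjusted p 0.00133). With each library left out in turn, 0 to 2 of the 10 genes were called higher and 0 to 1 lower, and all genes called numbered 114 to 172 higher and 101 to 150 lower, the 101 without Bbs8-/- replicate 1 (157 with all libraries). The log2 fold change of Aipl1 then ranged from -0.21 to 0.06, and was 0.011, 0.032 and 0.018 without Bbs8+/+ replicates 1, 3 and 4 and 0.062 without Bbs8-/- replicate 2. The ratio differences ranged from -0.90 to -0.63 for Prph2 to Rom1, 0.56 to 0.98 for Nrl to Crx, 1.09 to 1.31 for Unc119 to Gnat1, 0.14 to 0.37 for Nr2e3 to Nrl and -2.60 to -1.42 for Drd4 to Crx. Drd4 to Crx was -2.58 after thinning (exact permutation p = 0.0286), and it could not be given without a pseudocount. What caused these shifts was not tested. With the replicate block, Nr2e3, Unc119 and Drd4 stayed called (edgeR FDR 0.0198, 0.044 and 0.0375), and 134 genes were higher and 129 lower. Exchanging libraries only between those of the same number allows no exact permutation p under 0.125. Prph2 to Rom1 (-0.78), Unc119 to Gnat1 (1.22) and Drd4 to Crx (-2.14) had this smallest p. Over 9035 genes, deviations from the genotype means correlated by -0.0283 to 0.0203 between libraries of the same number, and only those numbered 1 correlated best with each other. The labels give the libraries a shared number only and do not state pairs. At 0 to 22 counts per library, the size of the change in Drd4 is the least certain of the 10.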

Other observations

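Some defining markers of other retinal cells had few counts, while other genes of their lists were well detected. Of 6 tested bipolar cell genes 0 passed, with a median log2 fold change of 0.22, Grik1 at 0.22 (edgeR FDR 0.554) and Gpr179 at 0.89 (edgeR FDR 0.424). Grm6, the glutamate receptor gene of ON bipolar cells, had at most 4 counts in any library. Of 8 tested Muller glia genes Dkk3 was down-regulated, with means of 197 ± 17.0 and 154 ± 10.6 CPM (SD, n = 4 each, log2 fold change -0.36, edgeR FDR 0.00367), and the list had a median of -0.01. Aqp4 and Kcnj10, channels of Muller glia, had at most 7 and 6 counts, and Apoe and Car14 on the same list are also RPE genes. Of 7 tested genes of amacrine, horizontal and ganglion cells, Slc6a9, a glycine transporter gene, was up-regulated, with means of 163 ± 12.0 and 206 ± 13.5 CPM (0.34 on the log2 scale, edgeR FDR 0.00621). That list had a median of 0.04, and Pou4f1 of ganglion cells had at most 6 counts.

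Within genotypes, the mean level of the 8 genes other than Unc119 and Drd4 varied little, from -0.15 to 0.11 on the log2 scale around the mean of the genotype. Of 9027 genes of at least 10 CPM, those with the most similar pattern over the 8 libraries were Fbxo6, Rftn1, Lars, Pygm and Rpl36al, with Pearson r from 0.942 to 0.973. These are the extremes of many comparisons over 8 points. None of the 5 is on a photoreceptor list used here.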
